A study of Mus musculus with 6 samples.

Results

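The S100 genes encode small calcium-binding proteins, and 8 of them (S100a1, S100a4, S100a6, S100a8, S100a9, S100a10, S100a11 and S100a13) were followed here across marrow cells carrying an MN1 or MN1VP16 vector and Gr1-positive, CD11b-positive marrow cells. Members were found by gene symbol, and 7 of the 8 were among the 18193 genes that the array annotation named with a probe set of their own. The only probe set listing S100a11 also listed other genes, so S100a11 has no value of its own here. Expression was measured on 6 Affymetrix mouse whole-genome arrays, 2 for each of 3 groups, as log2 RMA values deposited by the authors. All groups are labelled C57BL6. The MN1 group was GFP-positive marrow carrying pSF91-MN1-IRES-GFP, and the MN1VP16 group carried pSF91-MN1VP16-IRES-GFP. For both, donors received 150 mg/kg 5-fluorouracil for 4 days, their marrow was stimulated with IL6, IL3 and SCF for 48 hours, infected by coculture with E86 producer cells for 48 hours and transplanted into lethally irradiated syngeneic mice, and GFP-positive cells were sorted 4 weeks later. The Gr1Mac group was marrow sorted for Gr1 and CD11b. Its labels name no vector but repeat the protocol of the other groups, so whether these cells came from transplanted mice is not settled. MN1 is a transcriptional cofactor whose overexpression in mouse marrow causes myeloid leukaemia, and VP16 is the name of a herpesvirus activator; the labels describe the fusion no further. No mouse age is given. Nothing in the labels says whether arrays sharing a group came from different mice. The 2 Gr1Mac arrays were of opposite sex by the Xist and Kdm5d readings given below, so they did not come from the same mouse. For MN1 and MN1VP16 this is not settled, and the array-to-array spread behind each p-value may be technical there.

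S100 proteins form dimers whose EF-hand loops bind calcium, after which a surface opens that grips a target protein. S100a8 and S100a9 pair as calprotectin, which is stored at very high levels in the cytosol of neutrophils and monocytes and is released as an alarm signal and metal trap. S100a4 and S100a6 act on the cytoskeleton and on protein complexes, S100a10 holds annexin A2 at membranes and is known to have lost calcium binding, S100a13 is linked to the export of proteins that lack a signal peptide, and S100a1 regulates calcium handling in muscle.

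In MN1 cells, limma called 3 of the 7 measured members lower than in Gr1Mac and 0 higher, where 12% of all genes were called lower and 17.3% higher. These were S100a4, S100a6 and S100a13. S100a8 and S100a9 stayed near the top of the measured scale in every group. No member was called between MN1VP16 and Gr1Mac or between MN1VP16 and MN1, and for S100a4, S100a6, S100a9 and S100a13 the MN1VP16 mean lay between the other means. S100a1 was the member with its lowest group mean in Gr1Mac.

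Some facts of the arrays touch all of these values. Xist read between 10.44 and 12.59 log2 units on both MN1 arrays and Gr1Mac array 1. It read between 5.53 and 5.84 on the other arrays, where the Y-linked gene Kdm5d was high. The MN1 and MN1VP16 groups were thus also of opposite sex, and so were the 2 Gr1Mac arrays (Kdm5d 3.11 and 7.37 on arrays 1 and 2). The mean of 27 bright spiked control features was between 12.14 and 12.46 on both MN1 arrays and MN1VP16 array 1. It was between 11.24 and 11.68 on MN1VP16 array 2 and both Gr1Mac arrays. With this split as a block, MN1 minus Gr1Mac can be estimated only through the gap between the MN1VP16 arrays. With the Xist split as a block, MN1VP16 minus MN1 can be estimated only through the gap between the Gr1Mac arrays. Calls kept or lost in those fits, given below, therefore cannot decide whether a difference holds. Itgam, which encodes CD11b, read 10.95 and 10.92 in Gr1Mac, 9.44 and 8.88 in MN1VP16 and 7.67 and 6.95 in MN1. No single-gene probe set named Ly6g, Ly6c1 or Ly6c2, so the Gr1 antigen was not checked. In sorted bulk cells, fewer cells of a type and less RNA per cell cannot be told apart.

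The calprotectin pair is encoded side by side on chromosome 3 on opposite strands, with no protein-coding gene between them. The bases before the RefSeq start of each are shown because the factors known for this pair were measured too. The windows are the 250 bases before the start on the gene's own strand in GRCm38.p6, chr3:90668821-90669070 (plus strand) for S100a8 and chr3:90695722-90695971 (minus strand) for S100a9, with matches to any searched motif in capitals.
S100a8: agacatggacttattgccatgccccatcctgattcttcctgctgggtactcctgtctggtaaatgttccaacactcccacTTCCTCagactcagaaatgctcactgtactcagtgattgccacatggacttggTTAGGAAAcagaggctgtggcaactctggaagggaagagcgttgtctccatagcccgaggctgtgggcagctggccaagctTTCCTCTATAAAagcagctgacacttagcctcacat
S100a9: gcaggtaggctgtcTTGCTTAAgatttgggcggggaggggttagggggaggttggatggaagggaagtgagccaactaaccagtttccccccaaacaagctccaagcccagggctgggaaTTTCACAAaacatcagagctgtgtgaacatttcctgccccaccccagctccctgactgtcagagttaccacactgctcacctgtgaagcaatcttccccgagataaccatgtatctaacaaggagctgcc
Both strands were searched for TTNNGNAA (a C/EBP core), GAGGAA (PU.1), TGANTCA (AP-1) and the TATA box in the form TATAAA. S100a8 held 1 C/EBP match (TTAGGAAA, beginning 117 bases before the start), 2 PU.1 matches in the TTCCTC orientation and 1 TATA box that began 30 bases before the start and adjoined a PU.1 match without overlap. S100a9 held 2 C/EBP matches (TTGCTTAA and TTTCACAA). In all, 36.8% of 32851 RefSeq promoter windows of this length held the C/EBP letters, 23.3% the PU.1 letters, 6.75% the AP-1 letters and 12.4% the TATA letters. A match is a description of letters only.

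S100a8 read 14.98 and 14.60 log2 units on MN1 arrays 1 and 2, 15.16 and 15.08 on the MN1VP16 arrays, and 15.07 and 15.11 on the Gr1Mac arrays. The MN1 arrays were the lowest and did not overlap the others, while MN1VP16 and Gr1Mac overlapped. The highest reading of any probe set was between 15.11 and 15.18 on the 6 arrays, and on MN1VP16 array 1 it was S100a8 itself. Between 0 and 4 probe sets read above S100a8 on every array but MN1 array 2, where 21 did. A member this close to the top of the scale has little room to read higher.

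The S100a8 mean in MN1 was 14.79 ± 0.27 (SD, n = 2) against 15.09 ± 0.03 in Gr1Mac, a difference of -0.30 ± 0.18 log2 units (SE), not called (limma adjusted p = 0.279). The 95% interval of that difference ran from -0.75 to 0.14. MN1VP16 minus Gr1Mac was 0.03 ± 0.18 (adjusted p = 0.961 by limma, interval -0.42 to 0.47), and MN1VP16 minus MN1 was 0.33 ± 0.18 (adjusted p = 0.361 by limma, interval -0.12 to 0.78).

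S100a9 read 14.56 and 13.95 on the MN1 arrays, 14.77 and 14.79 on the MN1VP16 arrays, and 15.14 and 14.92 on the Gr1Mac arrays. Its groups did not overlap and were ordered MN1, MN1VP16, Gr1Mac. MN1 minus Gr1Mac was -0.78 ± 0.23 log2 units (SE), from means of 14.25 ± 0.43 and 15.03 ± 0.15 (SD, n = 2). This difference narrowly missed the threshold (limma adjusted p = 0.0536, unadjusted 0.0160), with an interval of -1.35 to -0.20. It passed with an intensity trend in limma (adjusted p = 0.0301), without MN1 array 1 (0.0323), and in 4 other settings listed in the closing section. MN1VP16 minus Gr1Mac was -0.25 ± 0.23 (limma adjusted p = 0.614) and MN1VP16 minus MN1 was 0.53 ± 0.23 (limma adjusted p = 0.259), so neighbours in this order did not differ beyond their spread by the test.

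Granule genes of maturing neutrophils were read on the same arrays. The mean of 17 measured secondary and tertiary granule genes of 19 listed averaged 12.03 ± 0.71 log2 units in MN1 (12.53 and 11.52 on arrays 1 and 2), 12.84 ± 0.22 in MN1VP16 and 13.83 ± 0.13 in Gr1Mac (SD, n = 2). In MN1 minus Gr1Mac 13 of these 17 were called lower and 0 higher, beside 12% and 17.3% of all genes. MN1 array 2 was the lower MN1 array for this list and for every measured member, with gaps from 0.01 (S100a13) to 1.14 (S100a6) log2 units. The part of these granule genes in the S100 values was not tested.

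**Figure D1:**
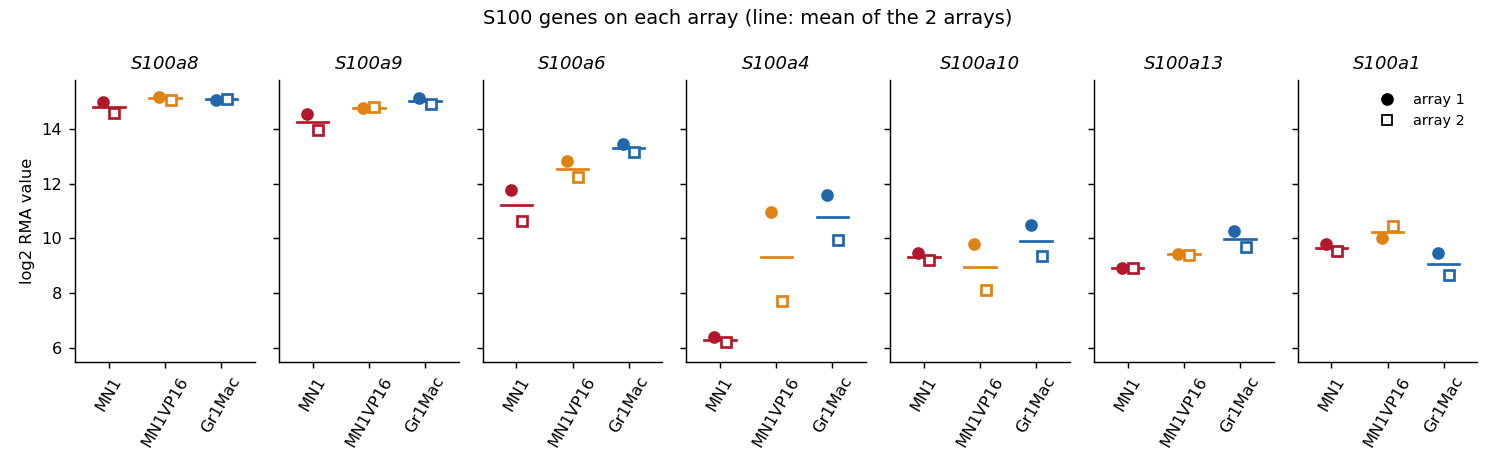
Log2 RMA value (vertical axis) of each measured S100 member on every array, by group (horizontal axis); filled circles are array 1, open squares array 2 and lines the mean of the 2 arrays. S100a8 lies between 14.60 and 15.16 on all arrays, while S100a4 lies at 6.22 and 6.39 in MN1 and spans 7.72 to 10.96 in MN1VP16.

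S100a4, also called metastasin or fibroblast-specific protein, binds non-muscle myosin and is high in monocytes and macrophages. It showed the largest difference of any member in each comparison. The array values were 6.39 and 6.22 log2 units on the MN1 arrays, 10.96 and 7.72 on the MN1VP16 arrays, and 11.61 and 9.95 on the Gr1Mac arrays. The MN1 arrays were low and close together, the Gr1Mac arrays were high, and the MN1VP16 arrays fell far apart, with array 1 inside the Gr1Mac range and array 2 between Gr1Mac and MN1.

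S100a4 fell by 4.47 ± 1.06 log2 units (SE) in MN1 against Gr1Mac, from 10.78 ± 1.17 to 6.31 ± 0.12 (SD, n = 2), which is 22.1-fold with an interval of 3.67 to 133 (limma adjusted p = 0.0244). The difference was larger than that of 99.4% of all genes. The call rests on 2 arrays in each group. It was lost without any 1 of these 4 arrays, with adjusted p between 0.0610 without Gr1Mac array 2 and 0.127 without Gr1Mac array 1, and with Xist-high against Y-high arrays as a block (0.0610). The difference was -5.30 among the Xist-high arrays alone. It was -7.71 with the spiked-control split as a block, a value that rests on the gap between the MN1VP16 arrays.

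MN1VP16 minus MN1 for S100a4 was 3.03 ± 1.06 log2 units and was not called (limma adjusted p = 0.165), although both MN1VP16 arrays lay above both MN1 arrays. Its interval was wide, from 0.44 to 5.62. MN1VP16 minus Gr1Mac was -1.43 ± 1.06 (limma adjusted p = 0.494, interval -4.03 to 1.16). The direction of that last difference depended on 1 array. Without MN1VP16 array 2 it was 0.19, and MN1VP16 array 2 alone gave -3.06 against the Gr1Mac mean. Among the arrays high in spiked controls, MN1VP16 array 1 lay 4.66 above the MN1 mean.

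The MN1VP16 arrays differed by 3.25 log2 units in S100a4, a gap larger than that of 99.8% of all genes, whose median gap was 0.19. In Gr1Mac the gap was 1.66, larger than in 99.5% of genes (median gap 0.28). In MN1 it was 0.17, against a median of 0.16. Genes with a near profile were then sought on the same arrays. By distance between profiles centred on their own means, the genes nearest to S100a4 over the 6 arrays were Fn1, which encodes fibronectin (0.30 log2 units root mean square), the C-type lectin receptor gene Clec4a3 (0.31) and the phosphatase gene Ptpro (0.42), against a median of 2.13 over 18186 genes. Fn1 read 8.19 and 8.56 on the MN1 arrays, 13.25 and 9.95 on the MN1VP16 arrays, and 13.17 and 11.66 on the Gr1Mac arrays. Fn1 was picked for its nearness to S100a4 on these arrays, so its wide MN1VP16 gap follows from that choice and is no separate evidence.

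Monocyte genes were also read on these arrays. The mean of 15 measured monocyte and macrophage genes of 18 listed was 9.11 and 8.83 on the MN1 arrays, 11.76 and 11.04 on the MN1VP16 arrays, and 11.63 and 10.87 on the Gr1Mac arrays. In MN1 minus Gr1Mac 11 of the 15 were called lower, beside 12% of all genes. In MN1VP16 minus MN1 7 were called higher, beside 1.15% of all genes. Array 1 was above array 2 in both MN1VP16 and Gr1Mac, as for S100a4, S100a6, S100a10 and S100a13, but the list's gaps were smaller than those of S100a4. The erythroid, mast cell and stem cell list means given below had this direction too, while that of the secondary and tertiary granule genes did not in Gr1Mac. The part of the monocyte genes in the S100a4 values was not tested.

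**Figure D2:**
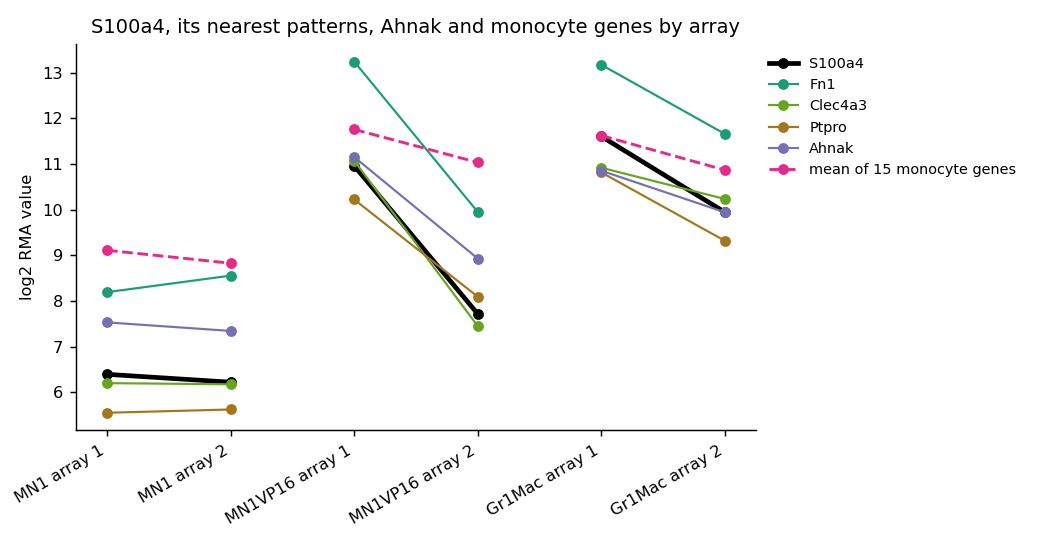
Log2 RMA value (vertical axis) on each array (horizontal axis) of S100a4, its 3 nearest genes by profile, the S100 partner gene Ahnak and the mean of 15 monocyte and macrophage genes; lines join the 2 arrays of a group. S100a4 drops from 10.96 to 7.72 between the MN1VP16 arrays, and Fn1 from 13.25 to 9.95.

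S100a6, or calcyclin, is a proliferation-linked S100 protein that binds annexins and the ubiquitin-pathway adaptor encoded by Cacybp. It lies close to S100a4 on the chromosome, with S100a5 between them. The windows of 250 bases before their starts are given because both genes were called lower in MN1. They are chr3:90603520-90603769 for S100a4 and chr3:90612644-90612893 for S100a6, both on the plus strand of GRCm38.p6, with motif matches in capitals.
S100a4: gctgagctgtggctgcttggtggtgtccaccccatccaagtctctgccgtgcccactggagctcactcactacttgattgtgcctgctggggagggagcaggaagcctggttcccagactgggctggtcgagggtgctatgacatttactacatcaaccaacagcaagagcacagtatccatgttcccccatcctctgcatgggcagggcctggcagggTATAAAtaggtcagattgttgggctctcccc
S100a6: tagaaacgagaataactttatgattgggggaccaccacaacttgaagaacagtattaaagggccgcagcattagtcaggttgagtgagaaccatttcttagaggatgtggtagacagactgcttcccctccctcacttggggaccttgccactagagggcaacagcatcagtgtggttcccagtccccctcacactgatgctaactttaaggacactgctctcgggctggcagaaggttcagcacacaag
S100a4 held a TATA box beginning 31 bases before the start and none of the other searched letters. S100a6 held none of the 4 motifs in this window. Across the 7 members with a promoter entry, 2 held a TATA match, 2 a C/EBP match, 2 a PU.1 match and 1 an AP-1 match.

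S100a6 read 11.79 and 10.65 on the MN1 arrays, 12.82 and 12.23 on the MN1VP16 arrays, and 13.47 and 13.17 on the Gr1Mac arrays. The groups did not overlap and followed the order MN1, MN1VP16, Gr1Mac. S100a6 fell by 2.10 ± 0.41 log2 units (SE) in MN1 against Gr1Mac, 4.29-fold with an interval of 2.16 to 8.52 (11.22 ± 0.81 against 13.32 ± 0.21, SD, n = 2; limma adjusted p = 0.0121). The call was lost without Gr1Mac array 1 (adjusted p = 0.0691) or array 2 (0.0554), with the Xist split as a block (0.0554) and with the spiked-control split as a block (0.0745, difference -2.69). Among the Xist-high arrays alone the difference was -2.25.

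MN1VP16 minus MN1 was 1.31 ± 0.41 log2 units for S100a6 (limma adjusted p = 0.130, interval 0.32 to 2.30), and MN1VP16 minus Gr1Mac was -0.79 ± 0.41 (limma adjusted p = 0.311, interval -1.78 to 0.20). Neither passed the threshold. The MN1 arrays differed from each other by 1.14, more than in 98.1% of genes. The genes with the nearest profile were Slfn2 (0.04 log2 units root mean square), Ubl3 (0.07) and Map3k3 (0.08), against a median of 0.94. Slfn2 read 11.42 and 10.34 on the MN1 arrays, 12.48 and 11.90 on the MN1VP16 arrays, and 13.05 and 12.89 on the Gr1Mac arrays. It was picked for its nearness to S100a6, so the likeness follows from that choice.

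S100a13 is expressed in many tissues and takes part in the release of FGF1 and interleukin 1 alpha. It read 8.92 and 8.91 on the MN1 arrays, 9.44 and 9.41 on the MN1VP16 arrays, and 10.27 and 9.67 on the Gr1Mac arrays. The arrays within MN1 and within MN1VP16 were nearly identical, and the groups did not overlap. S100a13 fell by 1.05 ± 0.22 log2 units (SE) in MN1 against Gr1Mac, 2.08-fold with an interval of 1.42 to 3.04 (limma adjusted p = 0.0169). That call was lost without MN1 array 1 (adjusted p = 0.0804) or array 2 (0.0969) and with the spiked-control split as a block (0.191). Among the Xist-high arrays alone the difference was -1.35. MN1VP16 lay between, with differences of -0.55 ± 0.22 from Gr1Mac (limma adjusted p = 0.214) and 0.51 ± 0.22 from MN1 (limma adjusted p = 0.256). Its nearest profiles were those of Necap1 (0.03), Khdc3 (0.04) and Rab29 (0.06), against a median of 0.51.

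S100a1, best known from heart and skeletal muscle, lies next to S100a13 on the opposite strand, start facing start. Their 250-base windows share 104 bases, chr3:90514331-90514434 of GRCm38.p6, given here on the plus strand because the neighbours read differently.
shared: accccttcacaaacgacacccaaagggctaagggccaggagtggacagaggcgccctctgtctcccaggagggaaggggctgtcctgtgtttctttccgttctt
None of the 4 motifs occurred in the window of S100a1 or of S100a13.

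S100a1 read 9.79 and 9.54 on the MN1 arrays, 10.01 and 10.46 on the MN1VP16 arrays, and 9.47 and 8.67 on the Gr1Mac arrays. The groups did not overlap, with Gr1Mac lowest and MN1VP16 highest. MN1VP16 minus Gr1Mac was 1.17 ± 0.31 log2 units (SE), 2.24-fold with an interval of 1.32 to 3.81, and was not called (limma adjusted p = 0.0867, unadjusted 0.00959). It passed without Gr1Mac array 1 or with the Xist split as a block (adjusted p = 0.0469 in both, difference 1.57). MN1 minus Gr1Mac was 0.60 ± 0.31 (limma adjusted p = 0.217) and MN1VP16 minus MN1 was 0.57 ± 0.31 (limma adjusted p = 0.358).

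Both S100a1 probe sets gave this order. The dimmer one read 6.25 and 6.09 on the MN1 arrays, 6.55 and 6.76 on the MN1VP16 arrays, and 6.03 and 5.87 on the Gr1Mac arrays. The genes nearest to S100a1 were Ddost, an oligosaccharyltransferase subunit (0.08 log2 units root mean square), Cmtm7 (0.10) and Ppm1f (0.13), against a median of 0.62.

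S100a10, or p11, forms a tetramer with annexin A2 and brings plasminogen and ion channels to the cell surface. It had 3 probe sets. The brightest read 9.46 and 9.21 on the MN1 arrays, 9.78 and 8.11 on the MN1VP16 arrays, and 10.48 and 9.36 on the Gr1Mac arrays, and all groups overlapped. The spread within groups was wide here too, with a gap of 1.67 in MN1VP16 and 1.12 in Gr1Mac, larger than in 98.2% and 97.2% of genes. As for S100a4, S100a6 and S100a13, array 1 was the higher one in both groups.

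MN1 minus Gr1Mac for S100a10 was -0.59 ± 0.60 log2 units (limma adjusted p = 0.532, interval -2.06 to 0.88), MN1VP16 minus Gr1Mac was -0.97 ± 0.60 (limma adjusted p = 0.402) and MN1VP16 minus MN1 was -0.39 ± 0.60 (limma adjusted p = 0.773). Without MN1VP16 array 2, MN1VP16 minus MN1 turned to 0.45. The second probe set read 8.45 and 8.26 on the MN1 arrays, 9.05 and 7.15 on the MN1VP16 arrays, and 10.38 and 8.44 on the Gr1Mac arrays. The dimmest read 4.22 and 4.51, 4.38 and 4.81, and 6.62 and 5.47 in the same order, with Gr1Mac above both other groups. Its nearest genes, Bcdin3d (0.22), Eps8l1 (0.22) and Mvd (0.25), lay farther off than those of S100a6 or S100a13.

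**Figure D3:**
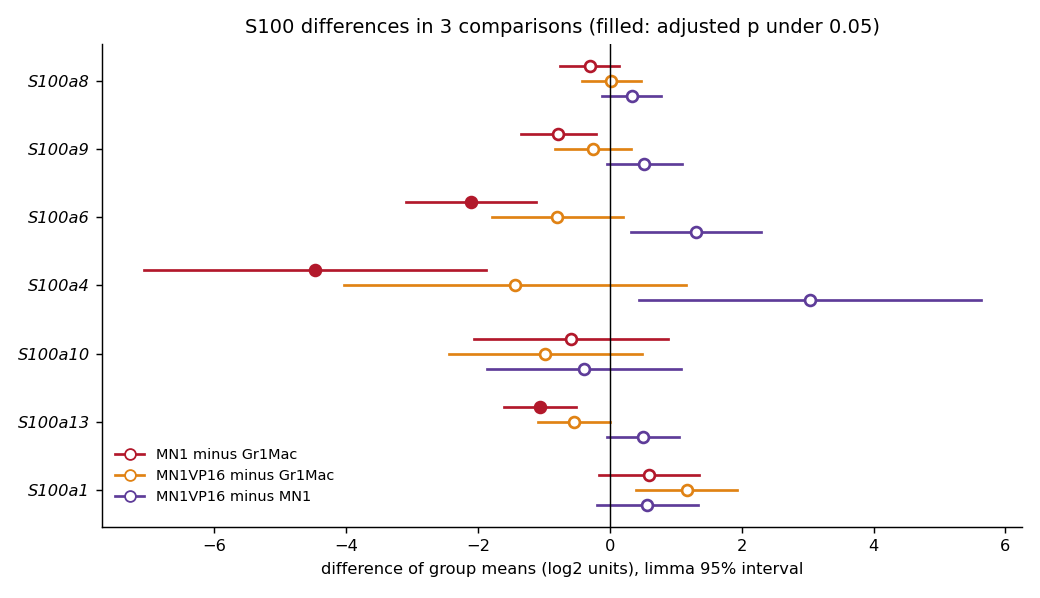
Difference of group means in log2 units (horizontal axis) with limma's 95% interval for each measured S100 member (vertical axis) in the 3 comparisons; filled points passed an adjusted p of 0.05. Only S100a4, S100a6 and S100a13 in MN1 minus Gr1Mac are filled, at -4.47, -2.10 and -1.05.

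As a set, the 7 members had a median difference of -0.78 log2 units in MN1 minus Gr1Mac, where the median of all genes was -0.06. limma called 29.3% of all genes in this comparison in either direction, beside 3 of 7 members, and 39.8% at an unadjusted p under 0.05, beside 4 of 7. MN1 lay below Gr1Mac without overlap for 5 members and above it for 1 (S100a1), beside 35.8% and 30.9% of all genes. In MN1VP16 minus Gr1Mac the members' median was -0.55, and limma called 0 of 7 beside 5.77% of all genes, 3.66% higher and 2.11% lower. At an unadjusted p under 0.05 there was 1 member, S100a1, beside 23.7% of all genes. There 3 members lay lower and 1 higher without overlap, beside 25.2% and 24.8% of genes. In MN1VP16 minus MN1 the members' median was 0.53, and limma called 0 of 7 beside 3.85% of all genes, 1.15% higher and 2.7% lower. At an unadjusted p under 0.05 there were 2 members, S100a4 and S100a6, beside 22.5% of all genes. MN1VP16 lay above MN1 without overlap for 6 of 7 members, all but S100a10, beside 30.5% of genes. The first 2 comparisons share the Gr1Mac arrays, and each pair of the 3 shares a group. An exact permutation test of 2 arrays against 2 cannot fall below 0.333 (two-sided).

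RefSeq places 15 S100 genes on mouse chromosome 3. In order they are S100a1, S100a13, S100a14, S100a16, S100a3, S100a2, S100a4, S100a5, S100a6, S100a7a, S100a8, S100a9, S100a7l2 and, beyond 54 other protein-coding genes, S100a11 and S100a10. The members called lower in MN1 were not one unbroken run, since S100a5 between S100a4 and S100a6 was not called (difference 0.43 ± 0.23, limma adjusted p = 0.226). S100a5 read between 3.80 and 4.54 on all arrays, near the bottom of the scale.

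Other S100 genes were dim. Of 10 listed, 7 were measured, and they read between 3.12 (S100a7l2) and 7.25 (S100a16) log2 units. S100a3 fell by 0.80 in MN1 against Gr1Mac (limma adjusted p = 0.0327), at readings of 4.04 and 3.81 against 4.95 and 4.49. The rest of these genes (S100a5, S100a7l2, S100a14, S100a16, S100b and S100g) were called in no comparison, with differences between -0.30 and 0.43 log2 units.

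**Figure D4:**
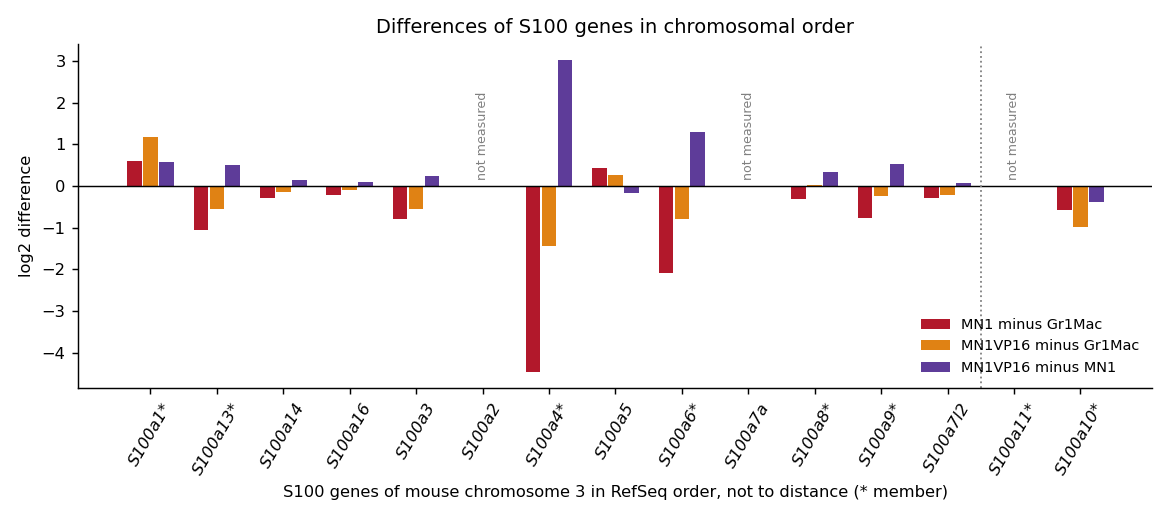
Log2 difference (vertical axis, bars from 0) in the 3 comparisons for S100 genes in their RefSeq order on chromosome 3, evenly spaced and not to distance; asterisks mark the 8 followed genes and the dotted line stands for 54 other protein-coding genes. The longest bars are those of S100a4, with a bar of S100a5 (0.43) between S100a4 and S100a6 on the other side of 0.

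Among receptors and binding partners of S100 proteins, 32 of 35 listed genes were measured. In MN1 minus Gr1Mac 15 of them were called lower and 4 higher (median -0.67), beside 12% and 17.3% of all genes. In MN1VP16 minus Gr1Mac 3 were called lower and 2 higher (median -0.30), beside 2.11% and 3.66%. In MN1VP16 minus MN1 limma called 0 (median 0.50), beside 3.85% of all genes. There 15 had an unadjusted p under 0.05 by limma, beside 22.5% of all genes. Anxa2, the annexin that holds S100a10, read 11.92 and 10.69 on the MN1 arrays, 12.91 and 12.61 on the MN1VP16 arrays, and 13.89 and 13.90 on the Gr1Mac arrays. It fell by 2.59 ± 0.39 in MN1 against Gr1Mac (limma adjusted p = 0.00543), while its partner S100a10 was not called. Ahnak, a giant scaffold protein bound by S100a10 with annexin A2, read 7.53 and 7.35 on the MN1 arrays, 11.16 and 8.93 on the MN1VP16 arrays, and 10.85 and 9.94 on the Gr1Mac arrays, so its MN1VP16 arrays split as those of S100a4 did. It fell by 2.96 ± 0.71 in MN1 (limma adjusted p = 0.0250), and Myh9, the myosin heavy chain that S100a4 binds, by 1.64 ± 0.29 (limma adjusted p = 0.00873). The call of Ahnak was lost without any 1 of the MN1 and Gr1Mac arrays (adjusted p between 0.0712 and 0.127), and that of Myh9 without Gr1Mac array 2 (0.0545). The Anxa2 value rests on the choice of probe set, and was -1.16 with the mean of the gene's probe sets. Without lettered sets (names ending in _x_at, _s_at or _a_at) it was -0.07 and no longer called (limma adjusted p = 0.822). Ahnak was -0.97 with the mean of probe sets (0.0681), -5.19 with the spiked-control block and no longer called with the Xist block (0.0712). The spiked-control block also ended the calls of Anxa2 (0.0687) and Myh9 (0.111), and the Xist block that of Myh9 (0.0545).

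Tlr4 and Ager, which encode receptors for released S100 proteins, read lowest in MN1. Tlr4, through which calprotectin signals, fell by 2.52 ± 0.37 log2 units in MN1 against Gr1Mac (limma adjusted p = 0.00495), and Ager, encoding RAGE, by 2.23 ± 0.23 (limma adjusted p = 0.00210). Ager also fell by 1.30 in MN1VP16 against Gr1Mac (limma adjusted p = 0.0358), a call lost without any 1 of the 6 arrays (adjusted p between 0.0675 and 0.106). The adhesion molecule gene Alcam (5.57 and 5.30 in MN1 against 8.54 and 8.02), the urokinase receptor gene Plaur (8.59 and 7.60 against 10.84 and 11.05) and the calcium channel gene Ryr1 (3.81 and 4.00 against 7.55 and 6.07) were called lower in MN1. In MN1VP16 Alcam (-2.40) and the scavenger receptor gene Cd36 (-2.15) were called lower than in Gr1Mac. The calcium pump gene Atp2a2 (1.64) was called higher. Cd36 (-2.03, limma adjusted p = 0.00341) and Atp2a2 (1.43, 0.0150) were called the same way in MN1. The MN1 call of Atp2a2 was lost without any 1 MN1 or Gr1Mac array and with the mean of its probe sets (0.81, limma adjusted p = 0.0720). The MN1 value of Cd36 was -1.04 with the mean of its probe sets. The Ryr1 call was lost without Gr1Mac array 1 or either MN1 array, the MN1VP16 calls of Alcam and Cd36 without Gr1Mac array 2, and that of Atp2a2 without any array but MN1VP16 array 2. With the spiked-control split as a block the MN1 calls of Tlr4 (-1.99, adjusted p = 0.117), Ager (-1.83, 0.0502) and Plaur (-2.54, 0.0647) and the MN1VP16 calls of Ager (0.106) and Atp2a2 (0.0580) were lost. The Xist block ended the MN1VP16 calls of Ager (0.0785) and Atp2a2 (0.0966). Probe set choice mattered as well. With the mean of a gene's probe sets the MN1 differences of Tlr4 and Ryr1 were -1.57 and -1.55, and the MN1VP16 calls of Ager (0.0523) and Atp2a2 (0.0767) were lost. Without lettered sets, Ager was -1.06 in MN1 and not called in MN1VP16 (-0.69, limma adjusted p = 0.114). For Cd36 in MN1VP16 the value was -0.82 (0.0682) without them and -1.05 with the mean of probe sets. The MN1VP16 calls of Ager and Atp2a2 were also lost when only the arrays compared were fitted.

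Cacybp, encoding the calcyclin-binding protein, ran opposite to S100a6. It read 11.53 and 11.46 on the MN1 arrays, 10.78 and 10.88 on the MN1VP16 arrays, and 9.45 and 9.41 on the Gr1Mac arrays, with no overlap. It rose by 2.07 ± 0.15 log2 units in MN1 (limma adjusted p = 0.00117) and by 1.40 ± 0.15 in MN1VP16 (limma adjusted p = 0.0140) against Gr1Mac. The second call was lost without Gr1Mac array 2 (adjusted p = 0.0614) or MN1VP16 array 2 (0.0503).

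Other EF-hand genes gave a comparison for the fold family. Of 44 listed 39 were measured. Their median difference in MN1 minus Gr1Mac was -0.67, with 17 called lower and 4 higher, beside 12% and 17.3% of all genes. In MN1VP16 minus Gr1Mac it was -0.37, with 2 called lower and 0 higher. These calls were 5.13% of the list, beside 5.77% of all genes. In MN1VP16 minus MN1 it was 0.28, with 0 called by limma beside 3.85% of all genes. There 13 had an unadjusted p under 0.05 by limma, beside 22.5% of all genes. The largest called differences in MN1 were those of the neutrophil granule-associated grancalcin gene Gca (-3.50), the actin cross-linker gene Actn1 (-2.66), Tesc (-2.65) and Rcn3, a reticulocalbin gene of the endoplasmic reticulum (1.97). Pef1 (-1.35) and the calcium sensor gene Stim2 (-0.74) were the ones called in MN1VP16 minus Gr1Mac. The calls of Gca and Tesc were lost without Gr1Mac array 2 or MN1 array 2, that of Tesc also without Gr1Mac array 1, that of Actn1 without Gr1Mac array 2 and that of Rcn3 without MN1 array 2. The Stim2 call was lost without any 1 array, and that of Pef1 without any but Gr1Mac array 1. With the spiked-control split as a block Gca (-1.63, limma adjusted p = 0.277), Actn1 (-2.40, 0.140), Rcn3 (0.95, 0.112), Pef1 (0.0958) and Stim2 (0.141) were no longer called, while Tesc was -4.07. The Xist block ended the calls of Gca (0.0841), Actn1 (0.0554), Tesc (0.0890) and Stim2 (0.0504). Pef1 also lost its call with array medians subtracted (0.0539) and Stim2 with an intensity trend (0.0847) or either dim-gene filter, and both when only the arrays compared were fitted. No test set the S100 members against this list.

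Several factors reported to regulate S100a8 and S100a9 changed between groups in which the pair read near the top of the scale. In MN1 minus Gr1Mac 7 of 15 measured factors were called lower and 2 higher (median -0.99), beside 12% and 17.3% of all genes. In MN1VP16 minus MN1 5 were called higher (median 1.23), beside 1.15%. In MN1VP16 minus Gr1Mac Klf5 (-2.00) was called lower and Myb (2.25) higher, beside 2.11% and 3.66% of all genes. Myb was also called higher in MN1 minus Gr1Mac (2.79, limma adjusted p = 0.00308). Cebpb, a C/EBP factor of mature myeloid cells, read 7.46 and 6.41 on the MN1 arrays, 9.38 and 9.50 on the MN1VP16 arrays, and 10.80 and 10.21 on the Gr1Mac arrays. It fell by 3.57 ± 0.38 in MN1 against Gr1Mac (limma adjusted p = 0.00217) and was 2.50 ± 0.38 higher in MN1VP16 than in MN1 (limma adjusted p = 0.0318).

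Cebpd followed the same order, at 10.40 and 9.50 on the MN1 arrays, 11.66 and 11.54 on the MN1VP16 arrays, and 13.16 and 12.86 on the Gr1Mac arrays. Klf4 was low in MN1, at 5.36 and 5.56 against 10.93 and 10.34 in MN1VP16 and 10.79 and 9.85 in Gr1Mac. Klf5, another zinc-finger factor of this family, fell by 3.23 in MN1 against Gr1Mac (limma adjusted p = 0.00277). Irf8, a monocyte factor, was 3.49 higher in MN1VP16 than in MN1 (limma adjusted p = 0.0465). Cebpa was called in no comparison, at 7.35 and 6.54 on the MN1 arrays, 8.14 and 8.47 on the MN1VP16 arrays, and 7.96 and 7.29 on the Gr1Mac arrays. The calls of Cebpb and Cebpd in MN1VP16 minus MN1 were lost without either Gr1Mac array, either MN1VP16 array or MN1 array 2 (adjusted p up to 0.152 and 0.204). That of Irf8 was lost without any 1 of the MN1 and MN1VP16 arrays (up to 0.257) and that of Klf4 without MN1 array 2 (0.0518). The MN1VP16 minus Gr1Mac call of Klf5 was lost without any 1 array, and that of Myb without any MN1 or Gr1Mac array. With the spiked-control split as a block the calls of Klf5 in MN1 (-2.49, limma adjusted p = 0.0617) and in MN1VP16 (0.109), and of Cebpb (0.0972), Cebpd (0.126) and Irf8 (0.0966) in MN1VP16 minus MN1, were lost. With the Xist block no MN1VP16 minus MN1 call of Klf4, Cebpb, Cebpd or Irf8 held (limma adjusted p between 0.158 and 0.312). MN1 and MN1VP16 lie on opposite sides of that block, so the fit rests on the gap between the Gr1Mac arrays. It cannot test these calls. The MN1VP16 minus Gr1Mac calls of Klf5 (0.0900) and Myb (0.0712) were also lost with the Xist block. Klf5 in MN1 was -1.68 with the mean of its probe sets and -1.40 without lettered sets. In MN1VP16 it was -1.17 and -1.08, and the second was not called (0.0801). The calls of Cebpd and Irf8 in MN1VP16 minus MN1 were also lost with array medians subtracted (0.0584 and 0.0570) and with the mean of probe sets (0.0662 and 0.0570). When only the arrays compared were fitted, Cebpb and Cebpd in MN1VP16 minus MN1 and Klf5 and Myb in MN1VP16 minus Gr1Mac were not called.

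**Figure D5:**
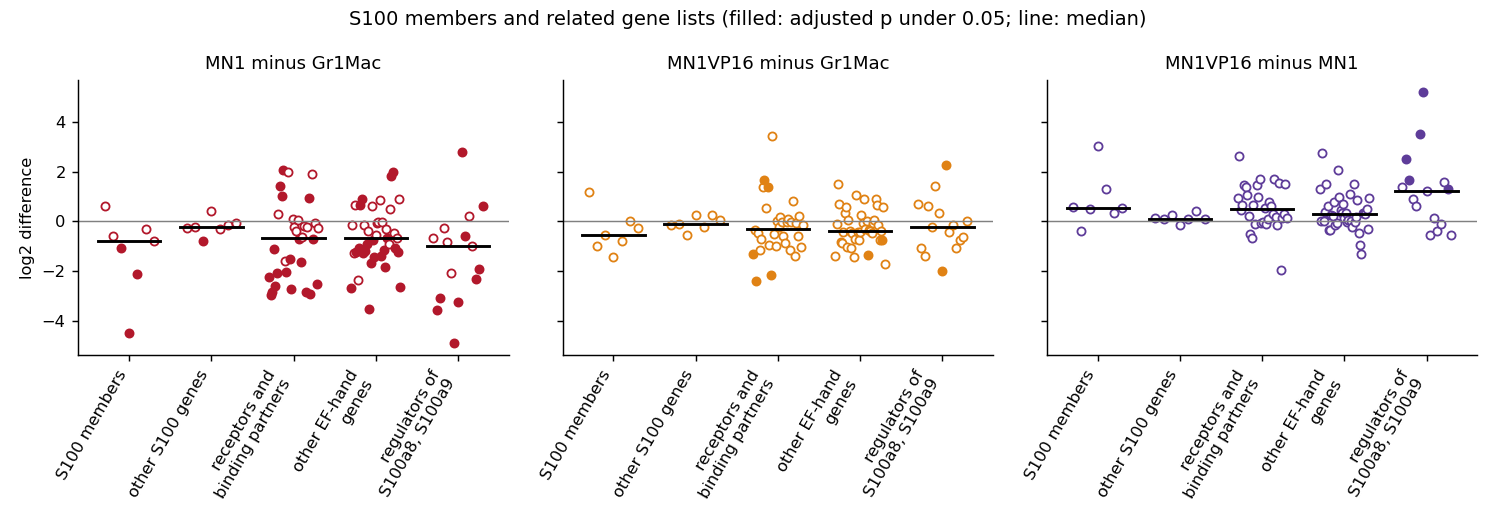
Log2 difference (vertical axis) of each measured gene in the S100 set and 4 related lists (horizontal axis) for the 3 comparisons; filled points passed an adjusted p of 0.05 and black lines are medians. In MN1 minus Gr1Mac the medians run from -0.99 for the regulators to -0.21 for the other S100 genes, with the S100 members at -0.78.

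Markers of other cell types differed between the groups, and their part in the S100 values was not tested. The mean of 11 measured erythroid genes of 14 listed was between 10.82 and 11.37 log2 units on the MN1 arrays, 8.29 and 9.23 on the MN1VP16 arrays, and 6.96 and 7.16 on the Gr1Mac arrays. The mean of mast cell and basophil genes (10 of 11 measured) lay between 9.51 and 9.92 on the MN1 arrays. It lay between 8.25 and 8.99 on the MN1VP16 arrays, and 6.22 and 6.44 on the Gr1Mac arrays. Cpa3 read 12.93 and 13.24 in MN1 against 5.59 and 4.08 in Gr1Mac. Hdc, the brightest gene of this list, read 11.66 and 11.79 in MN1 against 11.88 and 12.55 in Gr1Mac, and was not called there. Kit and Gata2 are listed both here and among the stem and progenitor genes. Other lists share genes too, so their counts are not separate. Klf4 and Irf8 are in the regulator and monocyte lists, and Myb is in the regulator and stem cell lists. Flt3 is in the dendritic and stem cell lists, and Anxa1 in the S100 partner and secondary granule lists. Stem and progenitor genes (12 of 14 measured) lay between 9.68 and 9.86 on the MN1 arrays, 8.34 and 8.95 on the MN1VP16 arrays, and 6.25 and 6.30 on the Gr1Mac arrays. In MN1 minus Gr1Mac 9 of the 11 erythroid, 6 of the 10 mast cell and 9 of the 12 stem cell genes were called higher and 0 lower, the reverse of the 3 S100 calls. Primary granule genes (8 of 10 measured) lay between 9.78 and 11.34, 11.89 and 12.78, and 11.60 and 12.05 in these groups. The mean of T and NK cell genes (11 of 12 measured) stayed between 5.97 and 6.14 on every array. Means of dendritic cell genes lay between 6.12 and 6.57, and of eosinophil genes between 5.59 and 7.29. Means of megakaryocyte genes lay between 6.40 and 7.58, and of B cell genes between 5.23 and 6.58. Single genes of these lists were still called in MN1 minus Gr1Mac, where 17.3% of all genes were called higher and 12% lower. For T and NK cell genes 1 was called higher and 1 lower. For dendritic cell genes (9 measured) 2 were called higher and 2 lower, and for megakaryocyte genes (8 measured) 3 and 1. For B cell genes (9 measured) 1 was called higher and 1 lower, and for eosinophil genes (6 measured) 0 and 1.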

How the data were processed

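The authors deposited 1 table of log2 signal for the probe sets of 6 arrays. It was produced by RMA, per the submitters' processing notes, and the software version is not given in the sources used here. This method removes background, gives all arrays the same distribution and combines probes, which shrinks differences among dim genes and hides any shift in total RNA. TRIZOL was used to extract RNA and a 3' IVT kit to label it, per the labels' protocols. Samples were grouped by their titles.

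Of 45101 lines, 64 were control features. GEO's platform annotation named 1 gene for 34945 probe sets, several for 932 and none for 9160, and only the first kind was tested. RefSeq (GRCm38.p6) matched 34741 of these by gene number and changed 0 symbols. For a gene with several probe sets the one brightest on average was kept, giving 18193 genes. limma 3.58.1 in R 4.3.3 (lmFit, eBayes) was fitted to all genes and all 6 arrays with group as the only term, with Benjamini-Hochberg adjustment over all genes and calls at an adjusted p under 0.05. The fit was tested on simulated data. Folds are 2 to the power of the log2 difference. Promoter sequences came from RefSeq (GRCm38.p6), and the expression files name no build.

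Named genes were all members, every other measured S100 gene, up to 4 called genes with the largest difference per related list and comparison, a fixed set of partners and factors, sort markers, up to 3 bright genes of each cell type list, and the 3 genes nearest in profile to a member. Members and lists were chosen with earlier results of these data known. Alternatives changed the probe set rule, dim-gene filter, scaling, variance model, arrays and blocks; the within-batch values were added after seeing the data.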

Additional observations from a re-analysis of the deposited data

How the results depend on the processing

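No S100 difference in MN1 minus Gr1Mac changed direction under any alternative run. The count of members called there, 3, was 1 with the spiked-control split as a block (S100a4) and 1 with Xist-high against Y-high arrays as a block (S100a13), and 1 to 3 with 1 array left out, where a lone array is assumed to vary like the other groups. In MN1VP16 minus Gr1Mac the count, 0, was 1 with the Xist split as a block and 0 to 1 with 1 array left out (S100a1). In MN1VP16 minus MN1 it was 0 throughout. With the replicate number as a block the counts were 4 (S100a9 added, limma adjusted p = 0.0498), 0 and 0. The same block ended the MN1VP16 minus Gr1Mac calls of Ager (0.0565), Klf5 (0.0627) and Stim2 (0.0747). The numbers were not taken to pair the arrays, since same-numbered deviations correlated at -0.0461, -0.0485 and 0.0804. Of the other settings, S100a9 also passed with an intensity trend (0.0301), the mean of probe sets (0.0479), without the dimmest 40% of genes (0.0474), without genes of low highest group mean (0.0458) and without MN1 array 1 (0.0323). Without probe sets ending in _x_at, _s_at or _a_at only 5 members were left, and S100a4 and S100a13 were called in MN1 minus Gr1Mac. S100a6 and S100a8 have only such a probe set, so that setting could not test them. Over 18 settings S100a13 was called in 15, S100a4 in 13 and S100a9 in 6, and S100a6 in 13 of 17. These settings include the fit reported above, and some give the same fit for MN1 minus Gr1Mac. Leaving out either MN1VP16 array matched fitting only the arrays compared. The Xist block matched leaving out Gr1Mac array 2. The tallies are therefore not independent checks. Some uncalled differences changed sign. In MN1VP16 minus Gr1Mac these were S100a4 (-3.06 to 0.19 with 1 array left out), S100a8, Ahnak, Anxa2 and Klf4. S100a8 was -0.000915 with array medians subtracted, -0.0149 with the spiked-control block and -0.0149 to 0.0681 with 1 array left out. Ahnak was 0.10 with the Xist block and -1.47 to 0.76 with 1 array left out. Anxa2 was 0.0090 without lettered probe sets, and Klf4 ran from -0.15 to 0.79 with 1 array left out. In MN1VP16 minus MN1 the differences that changed sign were those of S100a10, Atp2a2, Cd36 and Pef1. S100a10 was 0.45 with the spiked-control block, 0.74 with the Xist block and -1.22 to 0.45 with 1 array left out. Atp2a2 ran from -0.23 to 0.65 with 1 array left out. Cd36 was -0.40 to 0.16 with 1 array left out, 0.22 without lettered sets and 0.34 with the Xist block. Pef1 was 0.51 with the Xist block. The causes were not tested. The spiked-control block for MN1 minus Gr1Mac and the Xist block for MN1VP16 minus MN1 rest on the gap between the arrays of the group not compared. Their counts therefore cannot show whether the calls hold. Calls over all genes, 5334, 1050 and 701 in the order above, were lowest at 1486 (spiked-control block), 49 (without Gr1Mac array 2) and 0 (Xist block; 2501 at an unadjusted p under 0.05 by limma). The files hold no signal over background, so dim readings have no stated floor.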

Other observations

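The only probe set that listed S100a11, a widely expressed S100 protein that binds annexin A1, also listed the pseudogene S100a11-ps and Gm12854, so its signal cannot be assigned to 1 of these 3 genes and was not tested. It read 12.84 and 11.81 log2 units on the MN1 arrays, 13.34 and 13.38 on the MN1VP16 arrays, and 14.04 and 14.35 on the Gr1Mac arrays. These groups did not overlap, and MN1 array 2 was the lowest, as it was for S100a4, S100a6, S100a8, S100a9 and S100a13. The RefSeq promoter window of S100a11 held 2 AP-1 matches (TGAGTCA, beginning 136 and 38 bases before the start) and 1 PU.1 match (GAGGAA, 153 bases before it).

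By profile over the 6 arrays, S100a8 and S100a9 lay closest together among the members, at a root mean square distance of 0.22 log2 units between their centred values. The median distance of all genes was 0.31 from S100a8 and 0.43 from S100a9. S100a13 lay nearly as close to S100a9, at 0.25. Outside the members, 5330411J11Rik (0.03), Apoa2 (0.05) and Cers5 (0.05) lay nearest to S100a8. Sp110 (0.06), Cbln3 (0.07) and A430035B10Rik (0.08) lay nearest to S100a9. These genes lay closer than the pair did to each other, so the distance does not set the pair apart. The nearest member to S100a4 was S100a6, at 1.35 log2 units, where the median gene lay at 2.13.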
